A study of Mus musculus with 3 samples.

Results

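The genes described here encode the kinase NIK, TRAF and cIAP proteins, and the IKK subunits that act after NIK. The NIK and TRAF genes are Map3k14 (NIK), Traf1, Traf2, Traf3 and Traf5. Birc2 and Birc3 encode the cellular inhibitors of apoptosis cIAP1 and cIAP2, and Chuk, Ikbkb and Ikbkg the IKK subunits IKKα, IKKβ and NEMO. Together these are 10 genes of 52948 gene IDs, chosen by their known roles and matched by Ensembl ID, and all 10 were found. Their RNA was measured by sequencing in αTC1-6 cells, a mouse line from a glucagon-producing tumour of pancreatic α cells. Adenovirus had been added 16 h before, bringing in β-Gal (β-galactosidase, the control), NIK or NIK(KA), and each group has 1 library. Values are given in the order β-Gal, NIK, NIK(KA) unless the libraries are named. The name NIK(KA) usually stands for a kinase-dead mutant, but the labels leave it unexplained. Every group carries a virus, and no uninfected group was analysed here. The labels do not give the promoter of the viruses, or the species of the NIK sequence they carry. There are no replicates, so differences are given without p-values, and the spread between cultures is unknown.

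As background, NIK is made and destroyed continuously in resting cells. TRAF3 binds NIK, TRAF2 bridges TRAF3 to cIAP1 or cIAP2, and these ubiquitin ligases mark NIK for the proteasome. When receptors such as CD40 or the lymphotoxin β receptor recruit the complex, TRAF3 is degraded and NIK accumulates. NIK then activates IKKα, which leads to the processing of p100, the Nfkb2 product, in the non-canonical NF-κB pathway, while IKKβ and NEMO serve the canonical pathway. Much of this control acts on proteins, which RNA sequencing does not measure.

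The promoters of 3 of these genes are shown because the genes were all higher in NIK and their promoters differ in make-up. Traf3 held the NF-κB consensus motif, in capitals, and Birc3 and Traf1, which were at or near 0 reads outside the NIK library, held none. The sequences are RefSeq windows on GRCm38.p6, from 250 bases before to 50 bases after the annotated start, 5′ to 3′ on the gene's strand. The Traf3 window is chr12:111166120-111166419 on the plus strand. The Birc3 window is chr9:7873121-7873420 and the Traf1 window chr2:34961723-34962022, both on the minus strand.
Traf3: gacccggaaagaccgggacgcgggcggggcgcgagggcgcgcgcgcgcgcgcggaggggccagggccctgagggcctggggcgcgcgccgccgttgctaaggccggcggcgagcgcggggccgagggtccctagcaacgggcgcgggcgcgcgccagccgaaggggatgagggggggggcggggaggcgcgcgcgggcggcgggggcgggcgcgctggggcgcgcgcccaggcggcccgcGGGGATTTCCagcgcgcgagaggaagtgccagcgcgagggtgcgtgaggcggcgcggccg
Birc3: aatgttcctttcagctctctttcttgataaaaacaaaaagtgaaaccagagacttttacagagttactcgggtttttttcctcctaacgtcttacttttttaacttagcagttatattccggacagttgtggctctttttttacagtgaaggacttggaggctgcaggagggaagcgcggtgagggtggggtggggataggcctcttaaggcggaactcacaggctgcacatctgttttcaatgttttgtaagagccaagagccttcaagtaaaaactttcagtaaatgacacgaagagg
Traf1: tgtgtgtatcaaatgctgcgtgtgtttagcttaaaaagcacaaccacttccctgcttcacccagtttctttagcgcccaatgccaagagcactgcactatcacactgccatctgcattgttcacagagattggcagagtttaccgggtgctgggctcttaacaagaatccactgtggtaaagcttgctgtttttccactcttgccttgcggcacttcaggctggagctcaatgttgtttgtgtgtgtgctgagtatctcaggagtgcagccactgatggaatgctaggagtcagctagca
The match in Traf3, ggggatttcc, ended at the last base before the start, on the gene's own strand. Both strands were searched, and 5.8% of the 32851 windows of the same length held a match. Windows were matched for 9 of the 10 members, all but Ikbkb. Of their 13 windows, only that of Traf3 held the consensus, which with so few windows is close to the 5.8% among all windows. TATAAA was in 13.6% of all windows and in none of the members'. A wider form of the κB motif (a pair of G, a pair of purines, any 2 bases, a pair of pyrimidines, a pair of C) was in 11.2% of all windows, and among members in those of Traf3, Chuk and 1 of the 4 windows of Ikbkg. A looser motif (GGG, any 5 bases, CC), which overlaps both, was in 50.8% of all windows, in the Birc3 window from 57 to 48 bases before the start (gggataggcc) and not in that of Traf1. The bases G and C made up 84.0% of the Traf3 window, 43.0% of the Birc3 window and 48.7% of the Traf1 window.

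The libraries held 18629668, 15523580 and 16652922 counted reads, and mitochondrial genes took 3.71% to 4.02% of them. Levels are in FPKM, a count scaled to gene length and library total. All 8 α-cell markers passed the expression filter of a mean FPKM of at least 1, and Gcg, the glucagon gene, stood at 12090, 6955 and 10200 FPKM. Of 5 β-cell markers 2 passed the filter: Nkx6-1 stood at 35.4, 29.6 and 41.7 FPKM and Mafa at 0.845, 0.716 and 2.11 FPKM, while Ins1 and Ins2 had 0 reads in each library. Ppy and Cd3e had 0 reads as well, and the 6 leukocyte markers summed to 2.68, 3.42 and 1.87 FPKM, most of it Cd68. The duct gene Sox9 was highest in NIK, at 3.15, 8.69 and 2.63 FPKM, while Krt19 and Amy2a5 had 0 reads. The liver markers Alb and Apoa2 summed to 3.73, 3.09 and 12.4 FPKM. The β-Gal library stands apart in 5 heart muscle markers, which summed to 27.6 FPKM there, 0.538 in NIK and 0.983 in NIK(KA), with Myl2 at 0 in both of the latter. The part of these markers in the members' differences was not tested. The values of NIK over NIK(KA), which leave the β-Gal library out, are given for each member. In bulk RNA, fewer cells of a type and less RNA per cell cannot be told apart.

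**Figure D1:**
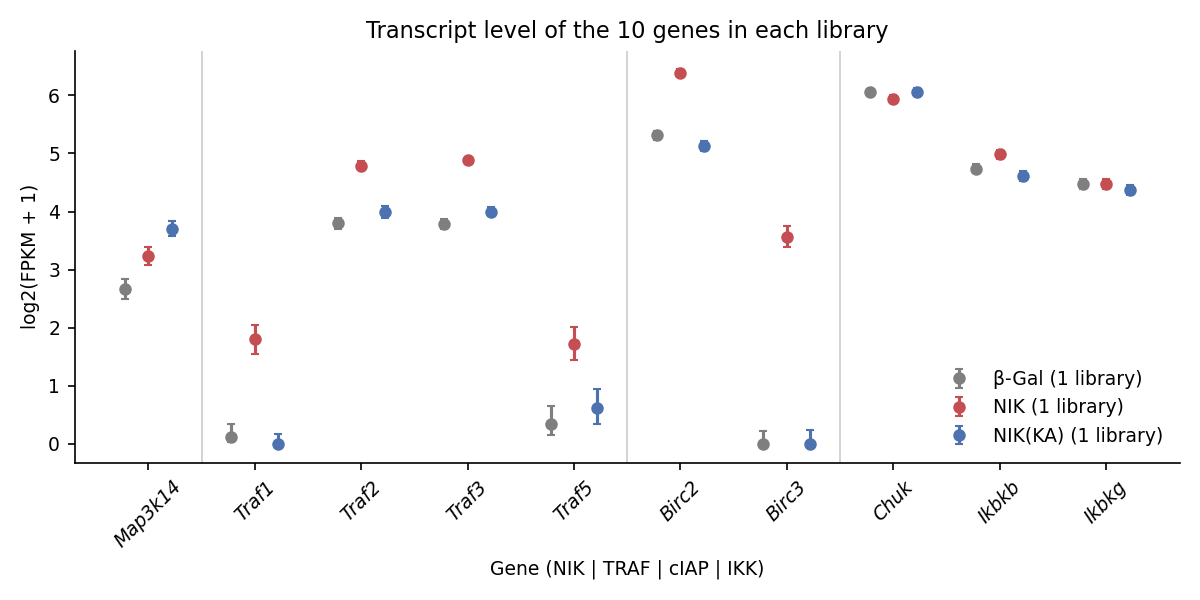
Level of each of the 10 genes, as log2(FPKM + 1), in the β-Gal, NIK and NIK(KA) libraries. Points are single libraries and bars are exact 95% counting intervals. The TRAF and cIAP genes are highest in NIK, the IKK genes lie close together in the 3 libraries, and Map3k14 is highest in NIK(KA).

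Map3k14, the gene of NIK (ENSMUSG00000020941, chromosome 11, 103219762 to 103267472 on GRCm38, minus strand), was read at 5.35, 8.42 and 12.1 FPKM, from 216, 283 and 435 reads. The order was β-Gal, then NIK, then NIK(KA), and the counting intervals of the 3 levels did not overlap. Against β-Gal, NIK was 1.57-fold higher (1.31 to 1.89) and NIK(KA) 2.25-fold (1.91 to 2.66). Ratios carry exact 95% intervals that cover only counting error, since without molecular identifiers a read need not be a separate molecule. Map3k14 ranked 32 of 12951 genes by its difference of log2(FPKM + 1) in NIK(KA) over β-Gal, which was 1.04. In NIK over β-Gal it ranked 1340, with a difference of 0.57. How many of these reads come from the viral transcript is unknown. Counts and medians over all members below include Map3k14 unless it is said to be left out.

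Of the TRAF and cIAP genes, all 6 had a higher level in NIK than in either other library. By the same measure, a difference of any size, 6157 of the 12951 genes past the expression filter were higher in NIK than in β-Gal. Against NIK(KA) 5906 were higher, and the number higher than in both was not counted. A gene is called higher or lower here at a difference of at least 1 in log2(FPKM + 1), or 2-fold, among the 12951 genes past that filter. In NIK over β-Gal, 4 members were called higher (Traf3, Traf5, Birc2 and Birc3) and 0 lower, of 9 past the filter, against 5.14% of all genes higher and 1.48% lower. Birc3 and Traf5 passed the filter through their NIK value, and Traf1, at a mean of 0.860 FPKM, did not pass. Without the filter 5 of the 10 members were at least 2-fold higher, beside 884 of the 26584 genes detected in any library. The median difference was 1.24 over the 6 TRAF and cIAP genes and 1.03 over all 10 members, Traf1 included. Over the 9 members past the filter it was 0.99, beside -0.018 over all genes past the filter. With 3 reads in place of 0, the median log2 ratio of reads was 2.11 over the 6 TRAF and cIAP genes and 1.07 over the 10 members. That median was not computed over all genes. Without Map3k14, 4 of 8 members past the filter were called higher, and the median difference of the 9 members was 1.07.

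Traf2 and Traf3 encode the adaptors that join NIK to the cIAPs, and their levels were alike in each library. Traf2 (ENSMUSG00000026942, chromosome 2, 25517982 to 25546940) stood at 12.9, 26.6 and 14.9 FPKM. Traf3 (ENSMUSG00000021277, chromosome 12, 111166370 to 111267153) stood at 12.8, 28.5 and 14.9 FPKM. In both, NIK lay above the other libraries with counting intervals that do not overlap theirs. At the gene lengths behind these FPKM, in no library did the intervals of Traf2 and Traf3 part. The likeness of the 2 genes depends on those lengths. In β-Gal they stood at 9.73 and 8.44 FPKM per length of the longest transcript, and at 7.85 and 8.11 per length of the joined exons. For Traf3, NIK exceeded β-Gal 2.23-fold (2.07 to 2.40) and NIK(KA) 1.91-fold (1.78 to 2.05). For Traf2 these ratios were 2.06 (1.88 to 2.26) and 1.78 (1.63 to 1.95). On the log2(FPKM + 1) scale Traf2 differed from β-Gal by 0.99, just short of a call, and Traf3 by 1.10. Neither was called in NIK over NIK(KA), at 0.79 and 0.89.

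Traf1 and Traf5 were near the floor outside the NIK library. Traf1 encodes a TRAF that lacks the RING domain of its relatives and binds TRAF2 and the cIAPs. It (ENSMUSG00000026875, chromosome 2, 34941750 to 34961772) had 3, 69 and 0 reads, or 0.0902, 2.49 and 0 FPKM. The NIK value was 27.6-fold that of β-Gal (9.06 to 137) and at least 24.7-fold higher than in NIK(KA), where a count of 0 is taken to allow up to 3 reads. Traf5, the gene of an adaptor of CD40 and the lymphotoxin β receptor (ENSMUSG00000026637, chromosome 1, 191997205 to 192092559), had 7, 49 and 12 reads, or 0.274, 2.30 and 0.526 FPKM. Traf5 in NIK exceeded β-Gal 8.40-fold (3.79 to 21.98) and NIK(KA) 4.38-fold (2.30 to 9.05). Between NIK(KA) and β-Gal its ratio of 1.92 had an interval from 0.696 to 5.75, so a difference was not detectable at this depth. In NIK, Traf1 made up 4.16% and Traf5 3.85% of the summed FPKM of the 4 TRAF genes.

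The cIAP genes lie side by side on chromosome 9, on the minus strand, 11634 bases apart. Birc2 (ENSMUSG00000057367, 7818227 to 7837064) stood at 38.8, 82.7 and 34.0 FPKM, and was the highest of the 10 members in NIK. Its level in NIK exceeded β-Gal 2.13-fold (1.99 to 2.28) and NIK(KA) 2.43-fold (2.26 to 2.62). Birc3 (ENSMUSG00000032000, 7848699 to 7873186) had 0, 202 and 0 reads, and was at 10.9 FPKM in NIK. At the floor of 3 reads, 0.134 FPKM in β-Gal and 0.150 in NIK(KA), Birc3 was at least 80.8-fold and at least 72.2-fold higher in NIK. By its difference of log2(FPKM + 1) from β-Gal, 3.57, it ranked 50 of 12951 genes, while Traf5 ranked 431, Traf3 600, Birc2 617 and Traf2 683. Birc2 still gave 88.4% of the summed FPKM of the pair in NIK.

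The coding genes on either side of the pair were looked at after the data were seen. Tmem123, the gene of a transmembrane protein, lies 23893 bases from Birc2 and stood at 28.2, 71.6 and 31.4 FPKM. Tmem123 too was called higher in NIK, 2.54-fold over β-Gal (2.36 to 2.73). Yap1, the gene of a transcriptional coactivator, lies 58812 bases beyond Birc3 and had 0 reads in each library. For the other 8 members, 0 of the nearest coding genes on either side were called, which with so few genes is close to the 5.14% higher and 1.48% lower among all genes. Those past the filter differed between NIK and β-Gal by -0.46 (Rcor1, beside Traf3) to 0.90 (Arhgap27, beside Map3k14).

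**Figure D2:**
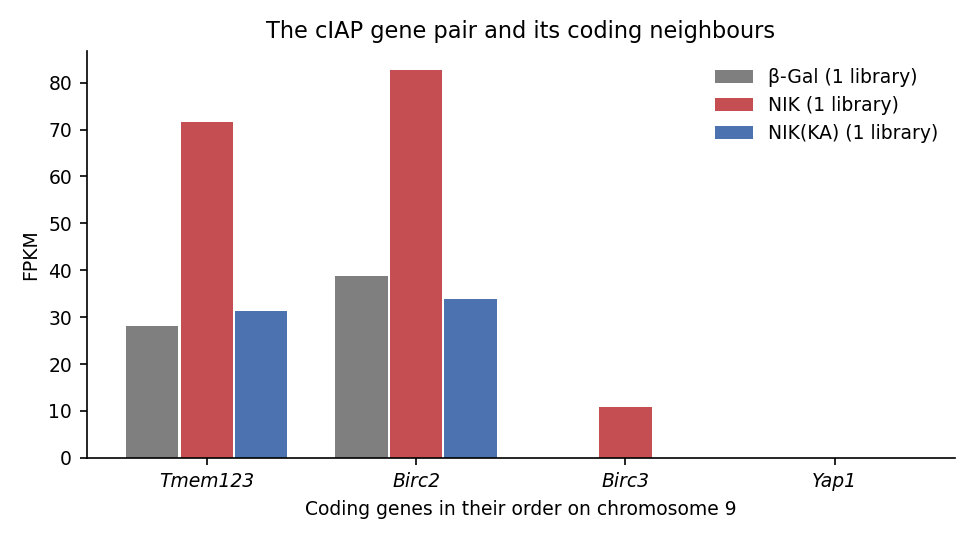
FPKM of Birc2, Birc3 and the nearest coding gene on each side, in their order on chromosome 9, 1 bar per library. Tmem123 and Birc2 are about as high in β-Gal as in NIK(KA) and higher in NIK, Birc3 is seen only in NIK, and Yap1 had 0 reads.

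Read sharing between the cIAP genes was examined in the reference transcripts. Of the 50-base words of Birc2 transcripts 1.49% also stood in transcripts of other genes, and of those of Birc3 7.56%, with 65 words common to the pair. Gm7019, a processed pseudogene on chromosome 12, shared 213 words with Birc3 and had 0 reads in each library. For the other members 0% (Traf3) to 4.57% (Traf5) of words stood elsewhere. The treatment of reads that match several places is not stated by the submitters' notes, so some Birc3 reads are uncertain in their origin. Exons of Map3k14 share 135 bases with 1700028N14Rik, which had 1 read in each library. Those of Traf5 share 65 bases with Mir3473c and 205 with the antisense gene Gm26879, both at 0 reads throughout.

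The IKK genes, whose products act after NIK, differed little. Chuk, the gene of IKKα, the kinase that NIK activates (ENSMUSG00000025199, chromosome 19, 44073335 to 44107480), stood at 65.2, 60.1 and 65.7 FPKM. Ikbkb, the gene of IKKβ (ENSMUSG00000031537, chromosome 8, 22659212 to 22706589), stood at 25.7, 30.6 and 23.5 FPKM. Ikbkg, the gene of the scaffold NEMO (ENSMUSG00000004221, chromosome X, 74393290 to 74453854), stood at 21.2, 21.2 and 19.7 FPKM. Chuk had its lowest level in NIK and Ikbkb its highest, and 0 of the 3 were called in any comparison. With 3 genes that is near the share of all genes, of which 5.14% were higher and 1.48% lower in NIK over β-Gal. In NIK over β-Gal the ratios were 0.921 for Chuk (0.861 to 0.986), 1.19 for Ikbkb (1.10 to 1.29) and 1.00 for Ikbkg (0.918 to 1.09). In NIK over NIK(KA) they were 0.915 (0.853 to 0.981), 1.31 (1.20 to 1.42) and 1.08 (0.983 to 1.18). An interval that excludes 1 was common, found in 54.9% of all genes in NIK over β-Gal and 55.1% in NIK over NIK(KA). The summed FPKM of the 3 genes was 112, 112 and 109, while the share of Ikbkb was 22.9%, 27.4% and 21.6%. Such sums and shares depend on the gene length used. Per length of its joined exons Ikbkb stood at 3.44 FPKM in β-Gal. Exons of Ikbkg share 418 bases with G6pdx on the opposite strand, which was at 32.4, 35.5 and 32.5 FPKM. Without a stated strand setting, reads there cannot be told apart.

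**Figure D3:**
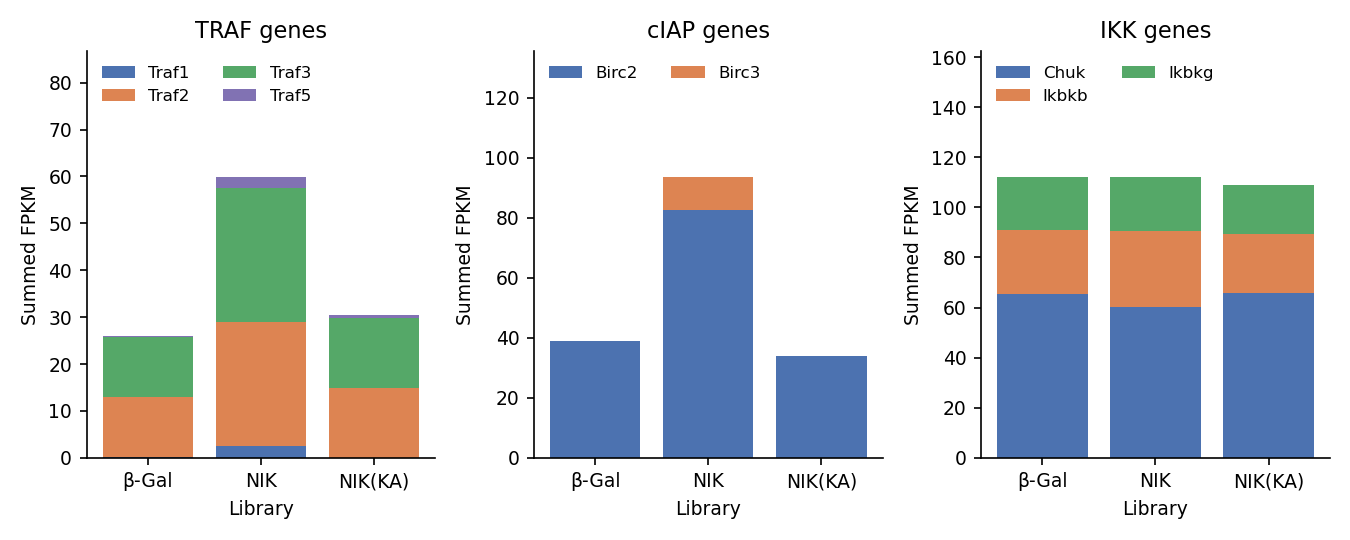
Summed FPKM of the 4 TRAF, 2 cIAP and 3 IKK genes in each library, 1 bar per library, split by gene. In the order β-Gal, NIK, NIK(KA) the TRAF sum is 26.1, 59.9 and 30.4, the cIAP sum 38.8, 93.5 and 34.0, and the IKK sum 112, 112 and 109.

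In NIK(KA) over β-Gal, Map3k14 was the only member called, and 0 of the other members were, against 0.27% of all genes higher and 0.417% lower. Traf2 and Traf3 were slightly higher in NIK(KA), at ratios of 1.16 (1.04 to 1.28) and 1.17 (1.07 to 1.27), and Birc2 and Ikbkb slightly lower, at 0.874 (0.804 to 0.9504) and 0.915 (0.841 to 0.995). These intervals exclude 1, as did those of 33.4% of all genes in this comparison. Chuk, at 1.01 (0.944 to 1.08), and Ikbkg, at 0.930 (0.853 to 1.01), had intervals that include 1. Birc3 had 0 reads on both sides, and Traf1 at most 3, so no ratio is given. In NIK over NIK(KA), Traf5, Birc2 and Birc3 were called higher and 0 members lower, against 5.07% of all genes higher and 1.1% lower. Of these members, Traf5 and Birc3 passed the filter through their NIK value. Map3k14 was at a ratio of 0.698 in NIK over NIK(KA) (0.599 to 0.812). Each library stands in 2 of the 3 comparisons, so these are not independent of each other.

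**Figure D4:**
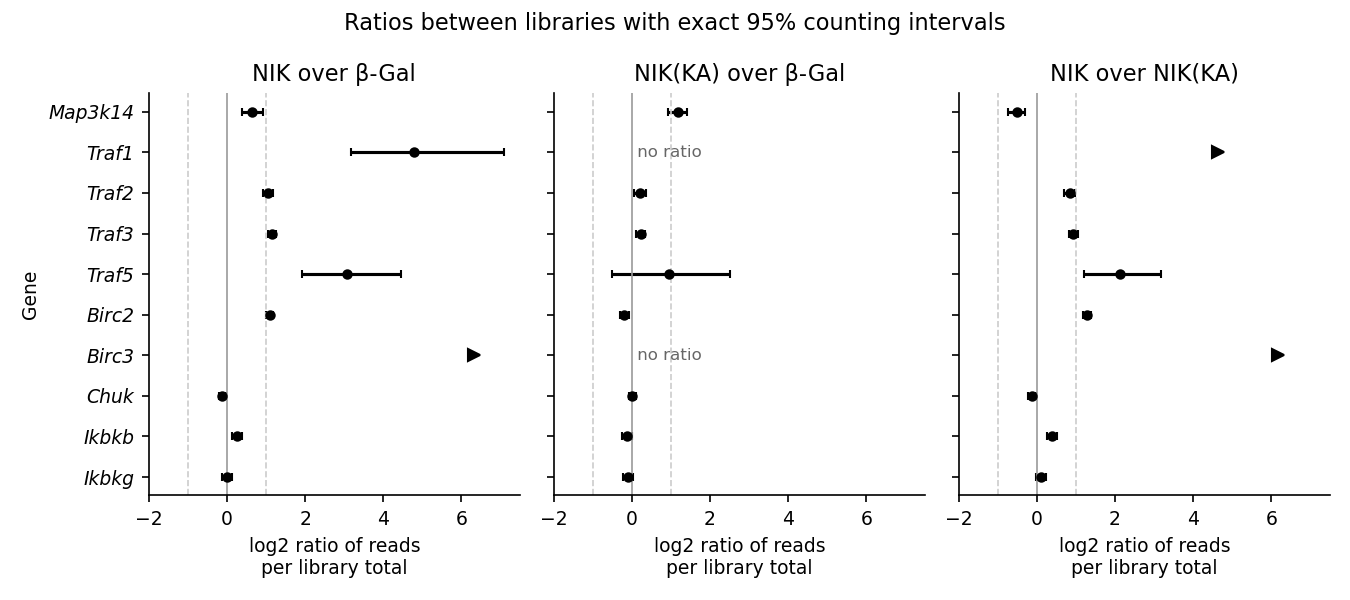
Log2 ratio of reads per library total for each gene in the 3 comparisons, with exact 95% counting intervals. Dashed lines mark 2-fold, triangles mark lower bounds at a floor of 3 reads, and "no ratio" marks genes with at most 3 reads on both sides. The TRAF and cIAP genes lie to the right in both comparisons with NIK, and the IKK genes lie near 0 in all 3.

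Set side by side per gene length, the 10 levels ran in β-Gal from Chuk through Birc2, Ikbkb, Ikbkg, Traf2, Traf3, Map3k14, Traf5 and Traf1 down to Birc3. In NIK the order was Birc2, Chuk, Ikbkb, Traf3, Traf2, Ikbkg, Birc3, Map3k14, Traf1 and Traf5. NIK(KA) had the order of β-Gal except that Traf3 stood just above Traf2 and that Traf1 and Birc3 were both at 0 reads. Of the 9 neighbouring pairs in each order, 3, 4 and 2 had overlapping counting intervals, among them Traf2 and Traf3 in each. The order depends on the length behind the FPKM, which lay within 1 base of the mean length of a gene's annotated transcripts for each member. That length was 1594 bases for Chuk and 2559 for Ikbkb, whose longest transcripts have 3502 and 4845 bases and whose exons together cover 5087 and 19078. Per length of the joined exons, Ikbkb moved from rank 3 to 6 in β-Gal and Traf3 from 6 to 3, while Chuk and Birc2 stayed at ranks 1 and 2.

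The wider pathway was described with 8 lists of related genes. The substrates and partners of the IKK genes were higher as a group. Of 11 NF-κB subunit and IκB genes 9 were called higher in NIK over β-Gal and 0 lower. Among all genes 5.14% were called higher and 1.48% lower. The median of the list was 1.51, beside -0.018 over all genes. Nfkb2, the gene of p100, stood at 5.80, 261 and 9.07 FPKM, a ratio of NIK to β-Gal of 45.05 (40.4 to 50.3). Nfkbie, Nfkbia and Relb were the others of the 4 with the largest differences, at 85.8-fold (67.2 to 111), 29.5-fold (26.1 to 33.5) and 29.4-fold (24.9 to 35.0). Rela and Nfkbib were not called, at 1.36-fold (1.23 to 1.499) and 1.86-fold (1.67 to 2.08).

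In the other lists 0 to 2 genes were called in NIK over β-Gal, each of them higher, beside 5.14% higher and 1.48% lower among all genes. In lists of this size 1 call is close to that share. Tifa, Cd40 and Ikbke passed the filter only through their NIK value. Of 8 other TRAF genes and TRAF-binding adaptors past the filter, Traf4 and Tifa were called, at 4.09-fold (3.39 to 4.95) and 9.32-fold (5.21 to 18.1), and the median was 0.0040. Tifa encodes an adaptor of TRAF6. Of 5 receptors that recruit the complex, Cd40 was called, with 0, 777 and 0 reads, and the median was 0.18. Ltbr, the lymphotoxin β receptor gene, stood at 83.3, 94.7 and 104.5 FPKM, highest in NIK(KA). None of 10 genes of the TNF receptor 1 complex, the linear ubiquitin ligase and TAK1 was called, and the median was 0.16. Tab2, the gene of an adaptor of the kinase TAK1, had the largest difference there, 1.29-fold (1.22 to 1.36).

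Of 10 IKK-related kinases, scaffolds and chaperones 1 was called, with a median of 0.11. This was Ikbke, the gene of the related kinase IKKε, at 0.427, 28.2 and 0.477 FPKM, a ratio of NIK to β-Gal of 66.2 (41.1 to 114). Of 14 deubiquitinase and ubiquitin ligase genes 1 was called, with a median of -0.021. This was Tnfaip3, the gene of A20, at 13.3-fold (10.4 to 17.3). Of 5 other IAP genes and IAP antagonists Htra2, the gene of a mitochondrial protease that binds IAPs, was called, at 2.40-fold (2.25 to 2.57), and the median was -0.13. Of 12 other MAP3K genes Map3k8 was called, at 4.26-fold (3.29 to 5.57), and the median was 0.12. In NIK(KA) over β-Gal 0 genes of the 8 lists were called, near the 0.27% higher and 0.417% lower among all genes.

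**Figure D5:**
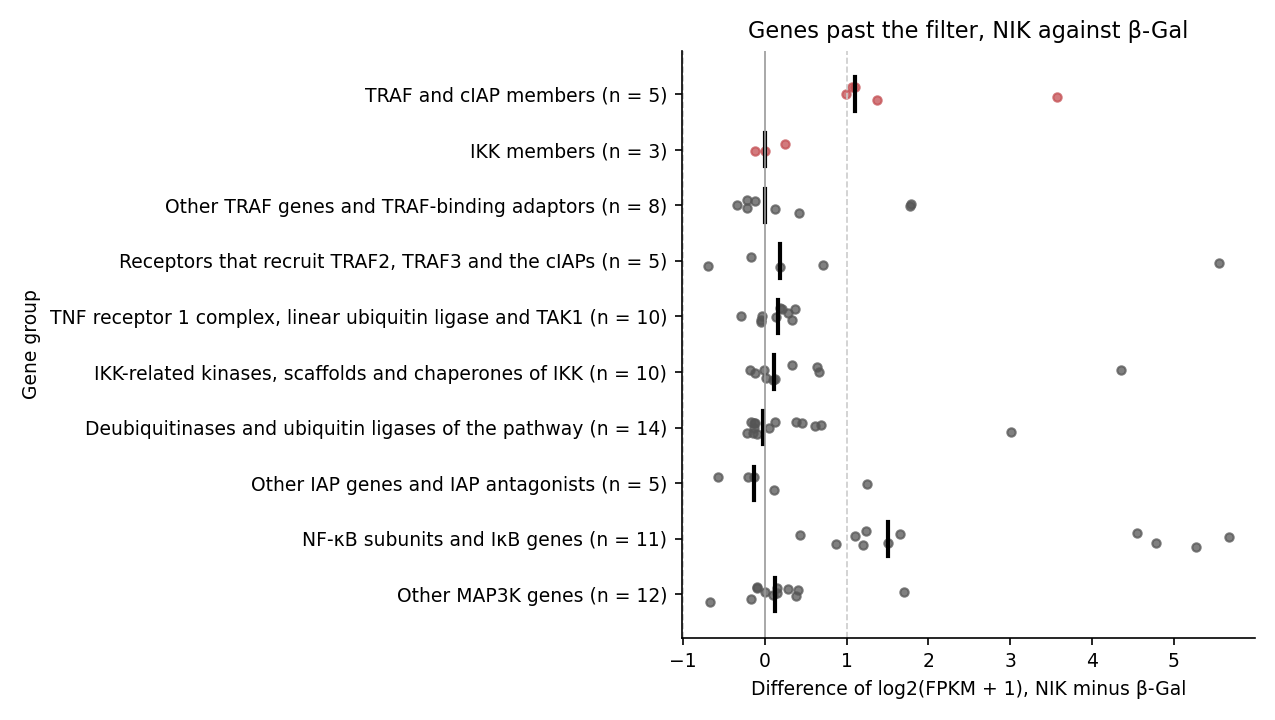
Difference of log2(FPKM + 1) between NIK and β-Gal for each gene past the filter, in the TRAF and cIAP members, the IKK members and the 8 lists. Points are genes, thick bars are medians, and dashed lines mark 2-fold. The TRAF and cIAP members and the NF-κB and IκB genes lie to the right as groups, and in 6 of the other 7 lists 1 or 2 genes do.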

How the data were processed

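RNA of 3 libraries, 1 per group, was sequenced. The submitters' processing notes name TopHat2, HTSeq 0.6.1 and GRCm38, with no role, annotation release or strand setting. The deposited values are FPKM per gene and library, made by the authors. The table has 3 columns of values, 1 per library. Of 52948 gene IDs, 52489 matched GENCODE M21, which gave symbols and coordinates.

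Low FPKM values fell in steps of single reads. The library totals followed from these steps, and whole reads were assigned to all 26584 detected genes. For 23795 of them, all 10 members included, a length within 1 base of the mean transcript length gave whole reads. For the others whole numbers were sought from the ratios between libraries and the length was inferred, so their counts are less certain. The recovered reads summed to 100.05% to 100.08% of the library totals. The recovered reads served for exact 95% intervals (Poisson for levels, conditional binomial for ratios) and for no count model. Recovery, the 2-fold rule and the intervals were tested on simulated data.

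A fold on the log2(FPKM + 1) scale understates the difference of low genes. The members, the lists and the rules were chosen with earlier results of these data known. Named are the members, Nfkb2, Gcg, up to 4 called genes of each list with the largest difference (or the 1 with the largest), genes whose exons overlap a member, and the 3 genes nearest in pattern to Map3k14, Traf3 and Birc2. Other genes named (neighbours, Ltbr, Rela, Nfkbib, Tnfrsf1b, Tnfrsf11a, Gm7019) were chosen after their values were seen. The 3 motifs beside the NF-κB consensus were added later. Python 3.11.15, pandas 2.3.3 and SciPy 1.17.1 were used.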

Additional observations from a re-analysis of the deposited data

How the results depend on the processing

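Settings varied one at a time were the pseudocount (0.1 or 5), the expression filter (absent, or a stricter one that asks for a mean FPKM of 5), the scaling (TPM, median ratio, upper quartile) and a counting interval that excludes 1. No called difference of a member changed sign. In NIK over β-Gal, 4 of 9 members past the filter were called higher, but 1 of 9 with a pseudocount of 5. With the stricter filter 2 of 7 were called, since Birc3 and Traf5 do not pass it and were left out. In NIK over NIK(KA) 3 of 9 were called, and 1 of 7 with that filter. In NIK(KA) over β-Gal 1 was called, and 0 with a pseudocount of 5 or without Map3k14, the latter added after seeing the data. Traf2 in NIK over β-Gal was called with a pseudocount of 0.1 (1.04) or median ratio scaling (1.00), and Traf3 was not with a pseudocount of 5 (0.91). With a pseudocount of 5 the only member called in NIK over β-Gal was Birc3, which passed the filter through its NIK value. Birc2, just short of a call, and Traf5 were not called at that setting.

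Over all genes, 666 higher and 192 lower in NIK over β-Gal became 357 and 54 with a pseudocount of 5, and 392 and 106 with the stricter filter, and 357 were lower with a pseudocount of 0.1. In NIK over NIK(KA), 657 higher and 142 lower became 335 and 34 with a pseudocount of 5, and 368 and 69 with the stricter filter. In that comparison 305 were lower with a pseudocount of 0.1 and 217 with no filter. In NIK(KA) over β-Gal, 35 higher and 54 lower became 120 and 128 with a pseudocount of 0.1, 1 and 6 with 5, 109 and 114 with no filter, 5 and 6 with the stricter filter, and 12 and 22 with the counting interval. Scaling put the median difference of all genes between -0.054 and 0.0029. Ranks of levels moved in 25 of 60 cases with other gene lengths. No paired analysis was possible because each group has 1 library. Members with few reads (Traf1, Traf5) and the spread between cultures limit what these libraries can show.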

Other observations

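The genes most like Map3k14, Traf3 and Birc2 in pattern were sought among 11142 other coding genes past the filter, by the Euclidean distance between log2(FPKM + 1) values centred on each gene's mean over the 3 libraries. For Map3k14 they were Zfp986, Sag and Il17f, at distances of 0.087, 0.13 and 0.17. All 3 were low, with Zfp986 at 0.432, 0.951 and 1.85 FPKM in the order β-Gal, NIK, NIK(KA), and only 8 genes lay within 0.25 of Map3k14. Within the same distance stood 286 genes for Traf3 and 174 for Birc2. The nearest to Traf3 were Acadl, a dehydrogenase gene of fatty acid breakdown, Tmem51 and Nr3c2, the mineralocorticoid receptor gene, at 0.029, 0.032 and 0.032. Acadl was at 27.1, 60.8 and 31.6 FPKM. The nearest to Birc2 were H2-T23, Sema4a and Pi4k2b, at 0.0038, 0.0062 and 0.020, with H2-T23 uncertain because it has near-identical copies. H2-T23 was low, at 1.26, 3.73 and 0.983 FPKM, beside 38.8, 82.7 and 34.0 for Birc2. Adding 1 to the FPKM shrinks the differences of low genes, so a small distance here does not mean an equal fold in FPKM. With 3 libraries such nearness is a description only.

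Under the expression filter, 2 receptor genes that recruit TRAF2 were seen mainly in NIK, and were picked out after their values were seen. Tnfrsf1b, the gene of TNF receptor 2, had 68 reads in NIK and 4 in β-Gal, and a ratio between them of 20.4 (7.61 to 77.0). Tnfrsf11a, the gene of RANK, had 2 and 56 reads, a ratio of 33.6 (8.88 to 284).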
